A study of Arabidopsis thaliana with 42 samples.

Results

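The UGT family of Arabidopsis thaliana comprises glycosyltransferases that move a sugar, most often glucose from UDP-glucose, onto small molecules. It was followed here through every probe set of an Affymetrix ATH1 array that is paired with 1 gene whose symbol starts with UGT and a digit. The rule found 47 probe sets for 47 genes among the 22746 probe sets tested, so each member was read by 1 probe set. They carry 11 different numbers after the letters UGT, called subfamily numbers here. Subfamily 71 had 9 members, subfamily 76 had 8, subfamily 73 had 7, subfamilies 84 and 85 had 5 each, subfamily 72 had 4 and subfamilies 74 and 78 had 3 each. Subfamilies 80, 87 and 88 had 1 member each. The RefSeq gene table holds 58 genes with such a symbol, so that the members do not make up the whole family.

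As background, glycosylation makes a small molecule more soluble in water, often ends its activity and allows its storage in the vacuole. The substrates of UGT enzymes include monolignols (the building blocks of lignin), flavonols and anthocyanidins, the hormones auxin, cytokinin and abscisic acid, the defence signal salicylate, intermediates of glucosinolate synthesis and compounds taken up from outside. Members with a like sequence share a number and a letter, and many lie side by side in the genome.

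RNA came from roots and shoots of wild type Columbia (Col-0) plants and of a bzip19 bzip23 double mutant with T-DNA insertions in 2 related transcription factor genes that act in the response to zinc deficiency. Plants stood in nutrient solution with 2 µM zinc sulfate for 3 weeks and then for 1 week with low zinc at 0.05 µM, the normal supply of 2 µM or an excess of 25 µM, and were 4 weeks old at harvest. Each of the 6 root groups held 4 arrays and each of the 6 shoot groups 3, which gave 12 groups and 42 arrays. Each sample pooled the organ of 6 plants from 2 containers, so that a value is a mean over plants and over all cell types of the organ. The mutant was given as a single double mutant with no complemented line, and the labels do not tell whether a group's replicates were grown apart, so that p-values reflect the spread among these arrays, which may be technical.

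The deposited values were log2 signals after robust multi-array averaging (RMA), with array medians from 6.87 to 6.99. The probe set of bZIP19, a gene disrupted in the mutant, read 8.60 to 10.1 on every wild type array and 4.35 to 5.17 on every mutant array, without overlap. bZIP23 was not analysed here. The highest mutant group mean of bZIP19, 4.92, served as a rough lower limit of the signal, and a fold is written as "at least" where the lower group mean was at or under it. Seen this way, 7 members had every group mean at or under 4.92 (UGT73C1, UGT73C2, UGT73C7, UGT76E1, UGT76E12, UGT84B1 and UGT84B2), and 32 had every group mean above it. The lowest mean signal over the root groups was 4.09 for UGT76E11 and the highest 10.4 for UGT74B1. In shoots the lowest was 4.26 for UGT76E1 and the highest 11.33 for UGT88A1. Since signal depends on the probes of each set, these values give no order of transcript abundance. Only 3 of 16 listed markers of photosynthetic tissue were measured (RCA, PSAN and CHLM), and the log2 of their summed signal was 14.69 to 14.92 on the shoot arrays and 8.78 to 10.23 on the root arrays. Of 12 listed root markers, 2 were measured (the root hair expansins EXPA7 and EXPA18) with 8.13 to 9.73 in roots and 6.71 to 7.11 in shoots. RMA signals have no zero, so no marker is listed at 0. Array dates in the labels divide the groups. In roots, the low zinc arrays carried another date than those at normal and excess zinc. In shoots, the excess zinc arrays carried another date than those at low and normal zinc.

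At excess zinc 10 of the 47 members rose in wild type roots and 1 fell, and the rise of UGT72E1 was the largest of the 10. In all, 23.4% of the members passed an adjusted p of 0.05 in this comparison, beside 9.7% of all probe sets. Members passed as higher in 10 cases against 5.96% of all probe sets, and as lower in 1 case against 3.74%. The median log2 difference was 0.102 over the members and -0.001 over all probe sets, and 33 of 47 members lay above 0, beside 49.8% of all probe sets. The arrays of these groups shared a date. Of the 3 photosynthetic markers, PSAN fell by 1.30 (adjusted p 0.0112) and CHLM by 0.61 (adjusted p 0.022) on the log2 scale. The log2 of their summed signal was 9.16 to 10.06 at normal and 8.78 to 9.23 at excess zinc, and that of the root markers was 9.09 to 9.67 and 8.13 to 9.26. Their part in the UGT values was not tested, and in RNA of whole organs fewer cells of a type and less RNA per cell cannot be told apart. On the heat map of differences, the column for excess zinc in wild type roots holds the most calls.

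**Figure D1:**
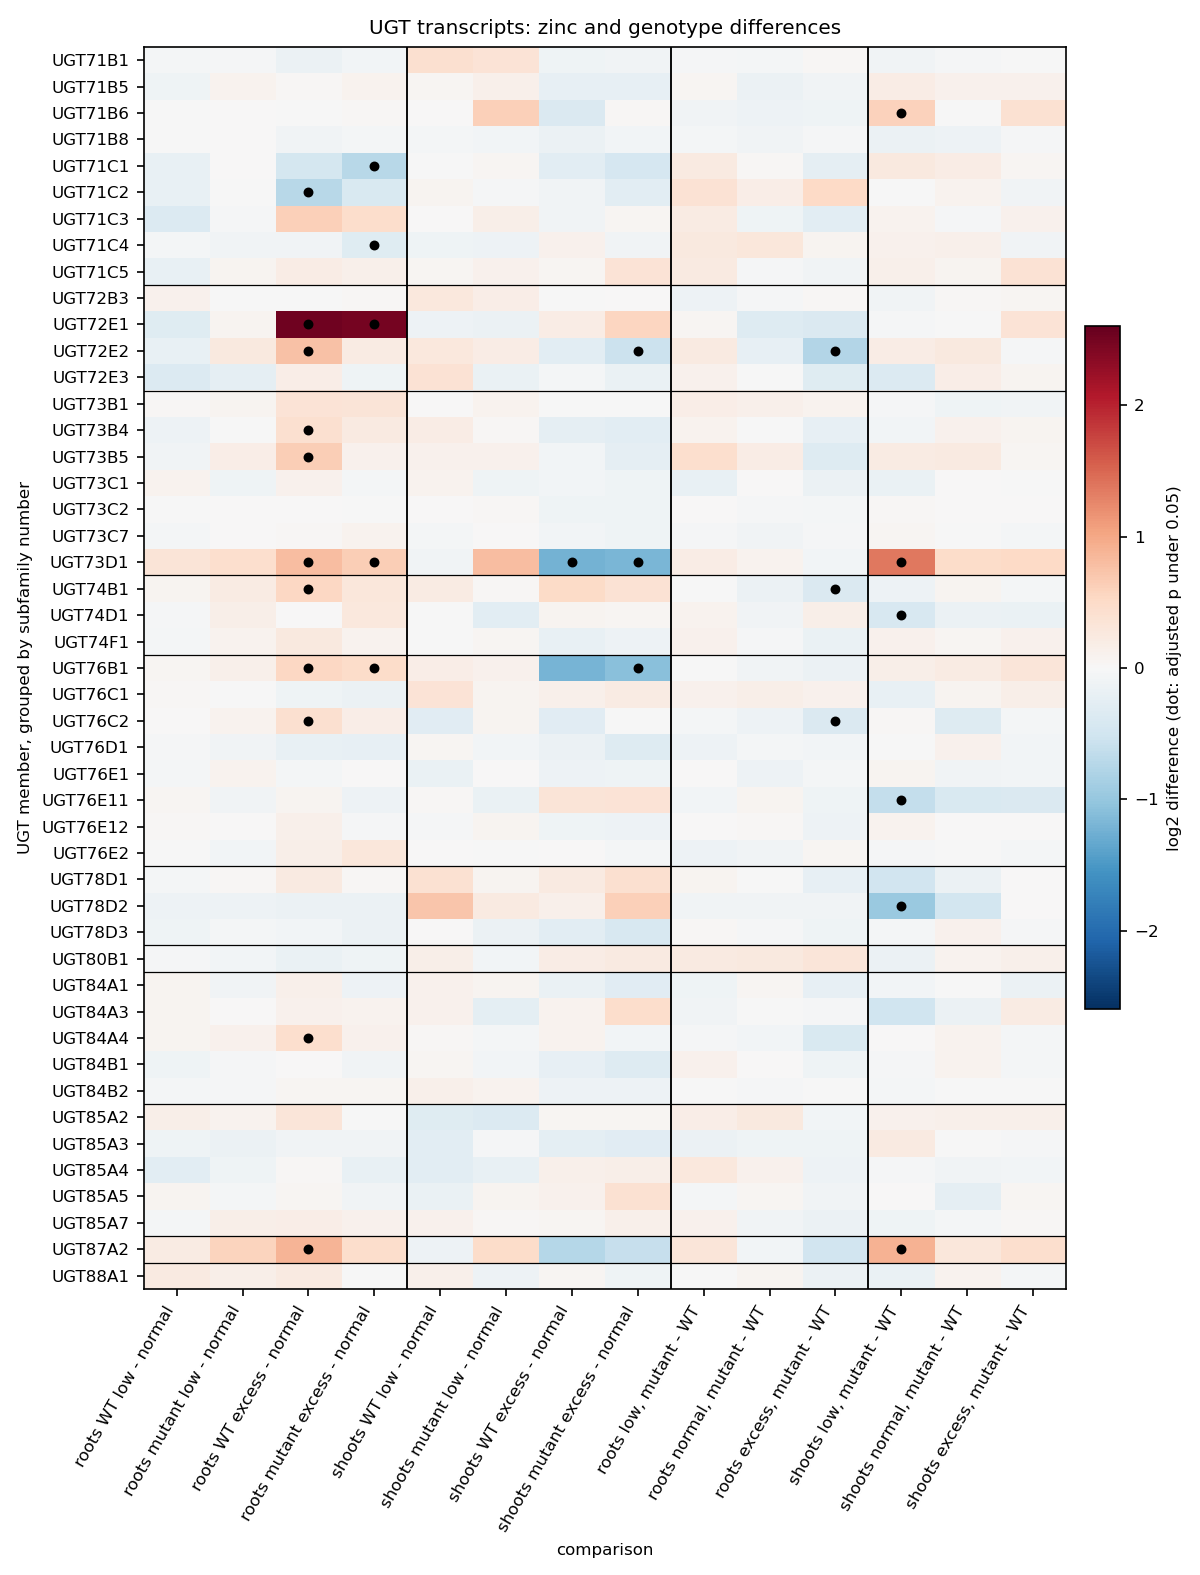
Log2 differences of the 47 UGT members (rows, grouped by subfamily number) in 8 zinc comparisons and 6 comparisons of mutant against wild type (columns), with a black dot where the adjusted p was under 0.05. Excess zinc in wild type roots has 11 dots, UGT72E1 is the darkest cell in both root columns, and UGT73D1 is called in 5 columns.

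UGT72E1 encodes a glucosyltransferase that acts on coniferyl and sinapyl aldehyde, precursors in the monolignol pathway. Its signal in wild type roots was 8.81, 9.55, 9.72 and 9.58 at normal zinc and 12.08, 12.30, 11.84 and 11.54 at excess zinc. Every array at excess zinc was more than 1 log2 unit above every array at normal zinc. The mean rose from 9.42 ± 0.41 to 11.94 ± 0.33 (SD, n = 4), a log2 difference of 2.52 (SE 0.161), or 5.74-fold, with an adjusted p of 1.4e-09. At low zinc the wild type roots read 9.28, 9.20, 8.99 and 8.96, all within the range at normal zinc. UGT72E2, which glucosylates the monolignol alcohols, rose 1.70-fold in the same roots (log2 0.77, SE 0.158, adjusted p 0.00268), from 9.57 to 10.08 at normal zinc to 10.27 to 11.22 at excess zinc. UGT72E3, a close relative that also acts on monolignols, did not pass (log2 0.18, adjusted p 0.496), nor did UGT72B3 (log2 -0.02, adjusted p 0.932).

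In subfamily 73, 3 of 7 members rose in wild type roots at excess zinc. UGT73D1 rose 1.75-fold (log2 0.81, SE 0.1, adjusted p 1.1e-05), and its values of 7.12, 7.17, 7.33 and 7.49 at normal zinc did not overlap those of 8.17, 8.01, 8.21 and 7.96 at excess zinc. UGT73B5, which takes part in resistance to pathogens, rose 1.57-fold (adjusted p 0.00175). Its neighbour in the genome UGT73B4 rose 1.33-fold (adjusted p 0.0124). The values of both groups stood apart for each of these genes, at 6.53 to 6.74 against 6.88 to 7.69 for UGT73B5 and at 5.38 to 5.49 against 5.73 to 6.03 for UGT73B4. UGT73B1, UGT73C1, UGT73C2 and UGT73C7 did not pass, with log2 differences from 0.02 to 0.36.

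Among the other subfamilies, UGT87A2, which bears on flowering time, rose 1.84-fold in wild type roots at excess zinc (log2 0.88, SE 0.145, adjusted p 0.000324). Its values were 6.03, 5.92, 5.95 and 6.31 at normal zinc and 6.96, 7.27, 6.96 and 6.54 at excess zinc, without overlap. UGT74B1, the S-glucosyltransferase of glucosinolate synthesis, rose 1.45-fold (log2 0.54, SE 0.0922, adjusted p 0.000482). UGT76B1, which glucosylates isoleucic acid, salicylate and N-hydroxypipecolic acid and so bears on defence, rose 1.46-fold (log2 0.54, SE 0.135, adjusted p 0.0122). UGT76C2, an N-glucosyltransferase of cytokinins, rose 1.33-fold (log2 0.41, SE 0.0883, adjusted p 0.00379). UGT84A4, which makes glucose esters of hydroxycinnamates, rose 1.34-fold (log2 0.43, SE 0.117, adjusted p 0.0219). The fall was that of UGT71C2, by 0.73 on the log2 scale (SE 0.144, adjusted p 0.00193), from 7.74 to 8.14 at normal zinc to 6.89 to 7.48 at excess zinc. No member of subfamilies 78, 80, 85 or 88 passed, with log2 differences from -0.17 to 0.31. Without root wild type excess zinc replicate 2, the array that agreed least with its group (mean correlation 0.98), 10 of the 11 calls were kept and 1 other member entered. The call of UGT84A4 was lost without that array (log2 0.30, adjusted p 0.0859), without excess zinc replicate 1 (0.41, adjusted p 0.0588) or without normal zinc replicate 1 (0.37, adjusted p 0.0792). The call of UGT76B1 was lost without normal zinc replicate 1 (0.43, adjusted p 0.057) or excess zinc replicate 1 (0.42, adjusted p 0.0585). With only the arrays of the groups compared in the fit, the calls of UGT73B5 (adjusted p 0.0543), UGT72E2 (adjusted p 0.0713), UGT76B1 (adjusted p 0.114) and UGT84A4 (adjusted p 0.163) were lost. That of UGT76B1 was also lost with all 42 arrays (adjusted p 0.084), and that of UGT84A4 with only the arrays of the shared date (adjusted p 0.0556).

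In mutant roots 3 members rose at excess zinc and 2 fell, 10.6% of the members beside 5.07% of all probe sets (3.45% higher and 1.62% lower). Of the photosynthetic markers PSAN fell here too (log2 -1.16, adjusted p 0.0344), and the log2 of their summed signal was 9.76 to 10.23 at normal and 8.87 to 9.77 at excess zinc. That of the root markers did not fall as in the wild type, at 8.64 to 9.62 (mean 9.09) and 9.07 to 9.63 (mean 9.45). The part of these markers in the UGT values was not tested. UGT72E1 read 9.23, 8.84, 9.16 and 9.07 at normal zinc and 11.58, 11.47, 11.54 and 11.68 at excess zinc. The groups lay over 2 log2 units apart, and the rise was 5.63-fold (log2 2.49, SE 0.161, adjusted p 2.8e-09). UGT73D1 rose 1.56-fold (log2 0.64, adjusted p 0.000339), and UGT76B1 rose 1.39-fold (log2 0.47, adjusted p 0.043). These 3 were the members called in the roots of both genotypes. UGT71C1, which glucosylates hydroxycinnamates and flavonoids in vitro, fell by 0.72 on the log2 scale (SE 0.17, adjusted p 0.0131), with values of 10.48 to 10.78 at normal and 9.62 to 10.03 at excess zinc. UGT71C4 fell by 0.31 (SE 0.0844, adjusted p 0.0307). Beside these values, the 3' to 5' actin log2 difference, a sign of RNA quality, was 2.86 to 3.18 in mutant roots at normal zinc and 2.57 to 2.87 at excess zinc. With that measure as a covariate UGT76B1 no longer passed (log2 0.50, adjusted p 0.0756). The call of UGT76B1 was also lost without normal zinc replicate 1 or 3 or excess zinc replicate 1, 3 or 4, at log2 differences from 0.39 to 0.49 and adjusted p from 0.0723 to 0.179. The call of UGT71C4 was lost without normal zinc replicate 1, 2 or 3 or excess zinc replicate 1, 3 or 4, at -0.31 to -0.27 and adjusted p from 0.0626 to 0.108. With only the arrays of the groups compared or of the shared date, neither UGT71C4 (adjusted p 0.0549 and 0.075) nor UGT76B1 (adjusted p 0.0641 and 0.112) passed, and with all 42 arrays UGT76B1 did not (adjusted p 0.207).

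In shoots, the members called at excess zinc fell in either genotype, 1 in wild type and 3 in mutant shoots. With all 42 arrays in the fit the calls were 3 lower and 1 higher in wild type and 5 lower and 2 higher in mutant shoots. In wild type shoots UGT73D1 alone fell, 2.13% of the members beside 0.62% of all probe sets (0.374% lower). Its values were 6.63, 7.02 and 6.81 at normal zinc and 5.90, 5.20 and 5.64 at excess zinc. The lowest array at normal zinc stood above the highest at excess zinc, and the mean fell from 6.82 ± 0.20 to 5.58 ± 0.35 (SD, n = 3), which is 2.36-fold (log2 -1.24, SE 0.198, adjusted p 0.00641). UGT76B1 and UGT87A2 had log2 differences of -1.20 (adjusted p 0.0787) and -0.75 (adjusted p 0.0983). The call of UGT73D1 was lost without normal zinc replicate 2 (-1.14, adjusted p 0.0553) or excess zinc replicate 2 (-1.05, adjusted p 0.055).

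In mutant shoots 3 members fell at excess zinc, 6.38% of the members beside 3.2% of all probe sets (0.936% lower). UGT73D1 read 7.52, 7.29 and 7.10 at normal zinc and 6.44, 5.75 and 6.12 at excess zinc. The groups did not overlap, and the fall was 2.29-fold (log2 -1.20, SE 0.198, adjusted p 0.00649). UGT76B1 read 7.93, 7.63 and 7.76 at normal zinc and 6.99, 6.33 and 6.71 at excess zinc. Here too every array at excess zinc was lower, by 2.14-fold in the mean (log2 -1.10, SE 0.289, adjusted p 0.0491). UGT72E2 fell 1.48-fold (log2 -0.56, SE 0.141, adjusted p 0.0398). UGT72E1, called in roots, had a log2 difference of 0.56 (adjusted p 0.0539) in these shoots and of 0.20 (adjusted p 0.762) in wild type shoots. The call of UGT76B1 was lost without any 1 of the 6 arrays (log2 -1.25 to -0.92, adjusted p 0.0735 to 0.184). That of UGT72E2 was lost without normal zinc replicate 1 or 2 or any excess zinc replicate (-0.68 to -0.46, adjusted p 0.0536 to 0.127). The 3' to 5' actin log2 difference was 2.58 to 2.78 at normal and 2.73 to 3.07 at excess zinc in these shoots. With it as a covariate, UGT72E2 (log2 -0.54, adjusted p 0.0815) and UGT76B1 (log2 -0.86, adjusted p 0.0886) did not pass. UGT72E2 was lost with only the arrays of the groups compared (adjusted p 0.0832), and UGT76B1 with eBayes set to trend and robust (adjusted p 0.0577). In both genotypes excess zinc in shoots and array date cannot be told apart.

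**Figure D2:**
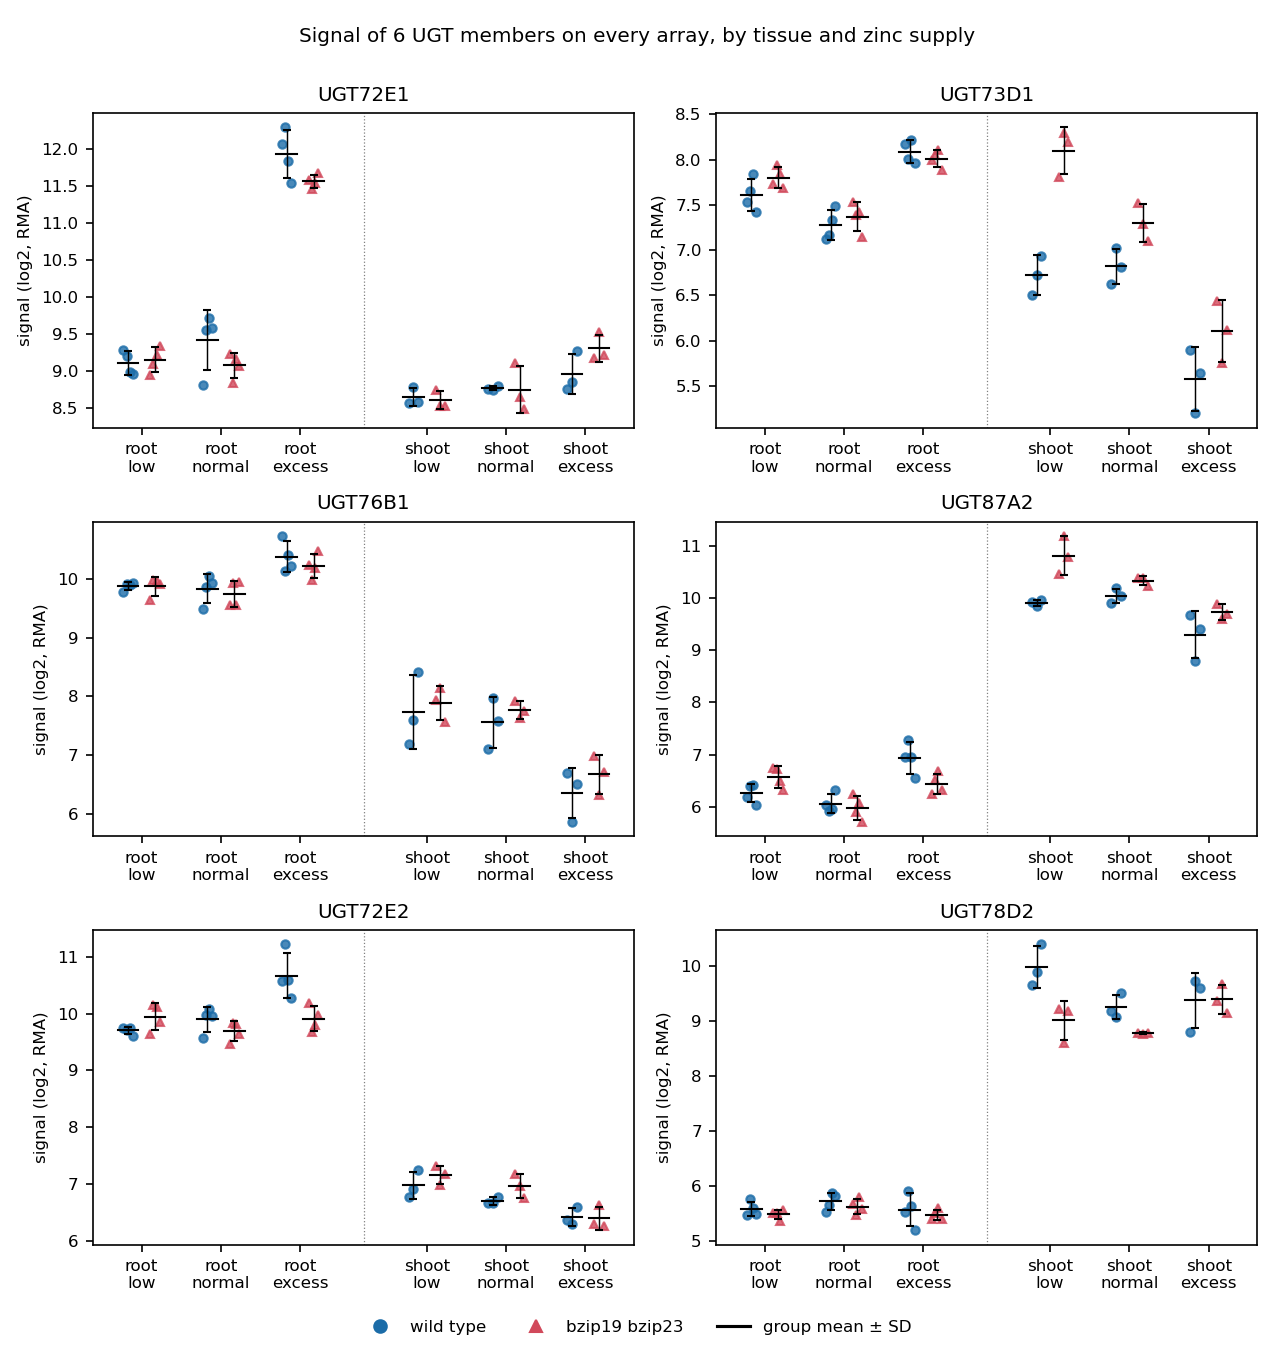
Log2 signal of 6 UGT members on every array (circles for wild type, triangles for the bzip19 bzip23 mutant), with black bars for the group mean and SD, by tissue and zinc supply on the horizontal axis. UGT72E1 stands at 11.47 to 12.30 in roots at excess zinc and at 8.48 to 9.72 in every other group. The group means of UGT73D1 are lowest in shoots at excess zinc, at 5.58 and 6.11. They are about equally high in mutant shoots at low zinc (8.10) and in wild type (8.09) and mutant (8.01) roots at excess zinc.

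The response to excess zinc differed between roots and shoots of the wild type for 9 members, 19.1% beside 4.61% of all probe sets. In 8 of them the root response was the higher, beside 3.45% of all probe sets, and in 1 the lower, beside 1.16%. The difference between the responses, roots minus shoots on the log2 scale, was 2.33 for UGT72E1 (adjusted p 7.46e-08), 2.05 for UGT73D1 (adjusted p 7.8e-08) and 1.75 for UGT76B1 (adjusted p 0.00035). It was 1.62 for UGT87A2 (adjusted p 3.35e-05) and 1.05 for UGT72E2 (adjusted p 0.00349). Of these, UGT72E1 rose in roots and had a small positive value in shoots. UGT73D1 rose in roots and fell in shoots, and UGT76B1, UGT87A2 and UGT72E2 rose in roots with negative shoot values that did not pass. Smaller differences passed for UGT73B5 (0.71, adjusted p 0.022), UGT76C2 (0.71, adjusted p 0.00533) and UGT73B4 (0.65, adjusted p 0.0137). The response of UGT71C2 was the lower in roots (-0.64, adjusted p 0.0472). The root arrays of this comparison shared a date, but in shoots the excess zinc arrays carried another date than those at normal zinc. So the shoot response and array date cannot be told apart in any of the 9. The call of UGT73B5 was lost without root excess zinc replicate 2 (0.58, adjusted p 0.0519), shoot normal zinc replicate 1 (0.66, adjusted p 0.0668) or shoot excess zinc replicate 2 (0.58, adjusted p 0.121). That of UGT71C2 was lost without any 1 of 10 of the 14 arrays: root normal zinc replicates 1 and 4, root excess zinc replicates 2 and 3 and all 6 shoot arrays (-0.66 to -0.53, adjusted p 0.0762 to 0.109). With only the arrays of the groups compared, UGT73B5 (adjusted p 0.11) and UGT71C2 (adjusted p 0.127) did not pass, and UGT71C2 was also lost with each array centred on its median (adjusted p 0.0568) or with eBayes set to trend and robust (adjusted p 0.0507).

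**Figure D3:**
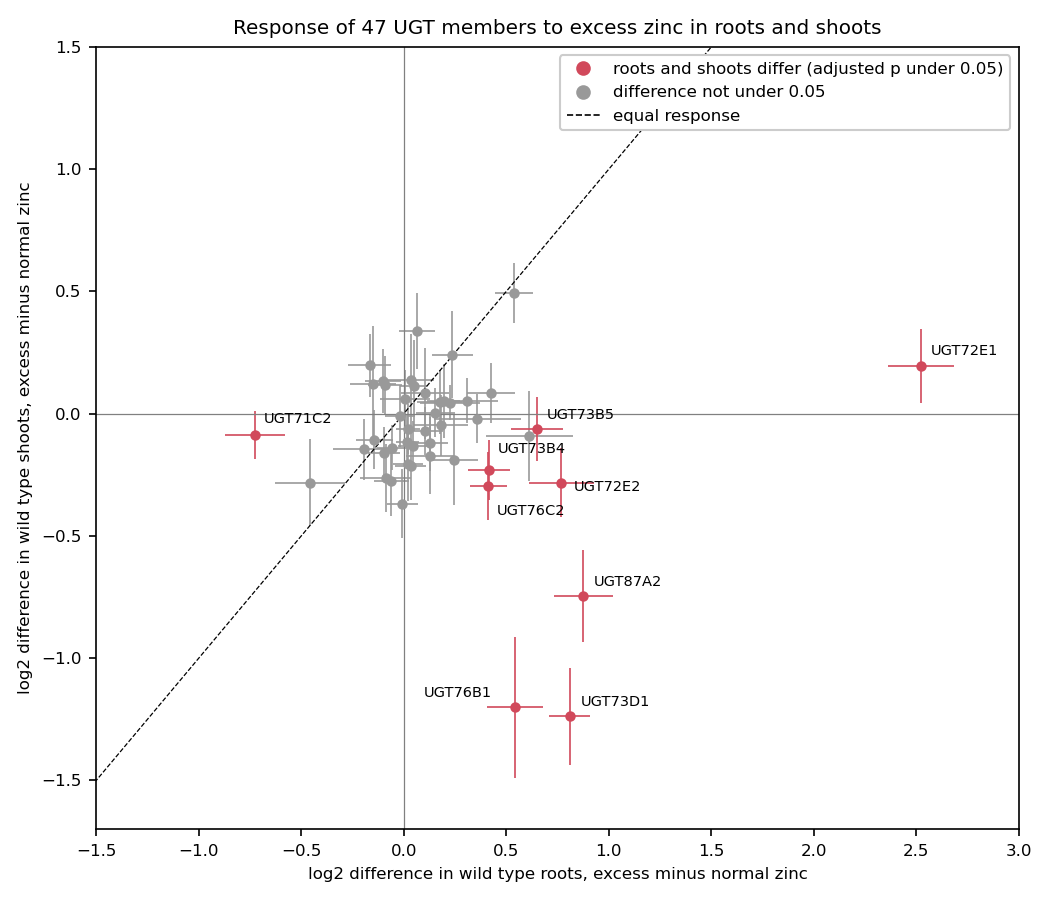
Log2 difference between excess and normal zinc in wild type roots (horizontal axis) and shoots (vertical axis) for the 47 UGT members, with SE bars; red points are those whose responses differed between tissues at an adjusted p under 0.05 and the dashed line marks an equal response. UGT72E1 lies far to the right at 2.52 in roots and 0.20 in shoots, and UGT73D1, UGT76B1 and UGT87A2 lie to the lower right.

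Low zinc called no UGT member in either tissue or genotype by limma in the main fits. In wild type roots 0.132% of all probe sets passed, and 4 members had an unadjusted p under 0.05, as had 9.14% of all probe sets. The largest log2 differences there were -0.36 for UGT72E3 (adjusted p 0.374), -0.35 for UGT71C3 (adjusted p 0.683) and 0.33 for UGT73D1 (adjusted p 0.243). In mutant roots 0.0484% of all probe sets passed, and 3 members had an unadjusted p under 0.05, as had 6.95% of all. UGT87A2 had 0.59 (adjusted p 0.15), UGT73D1 had 0.43 (adjusted p 0.133) and UGT72E2 had 0.25 (adjusted p 0.848). In both genotypes low zinc in roots and array date cannot be told apart.

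In wild type shoots at low zinc, whose arrays shared a date with normal zinc, 0.703% of all probe sets passed and 8 members had an unadjusted p under 0.05, as had 11% of all. The flavonoid glycosyltransferases UGT78D2 and UGT78D1 had log2 differences of 0.72 (adjusted p 0.215) and 0.41 (adjusted p 0.411), and UGT71B1 had 0.42 (adjusted p 0.155). In mutant shoots 0.0659% of all probe sets passed, and 6 members had an unadjusted p under 0.05, as had 7.46% of all. UGT73D1 had 0.79 (adjusted p 0.147), UGT71B6 had 0.63 (adjusted p 0.0969) and UGT87A2 had 0.48 (adjusted p 0.512). With all 42 arrays in the fit, 2 members were called higher at low zinc in wild type and 2 in mutant shoots. Likewise, 1 was called higher in wild type shoots without normal zinc replicate 1, and 1 in mutant shoots without low zinc replicate 1. The response to low zinc was not called as different between wild type roots and shoots for any member by limma, beside 0.404% of all probe sets, with 7 members and 10.2% of all probe sets at an unadjusted p under 0.05. Its root response carries the difference in array date named above. The lowest adjusted p was that of UGT72E3, at 0.0886 (log2 -0.73).

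The mutant differed from the wild type in 6 members in shoots at low zinc, 12.8% beside 5.88% of all probe sets, with 3 higher (3.13% of all probe sets) and 3 lower (2.75%). UGT73D1 read 6.50, 6.73 and 6.94 in wild type and 7.81, 8.29 and 8.19 in mutant shoots. The mutant arrays all stood above the wild type arrays, 2.59-fold in the mean (log2 1.37, SE 0.198, adjusted p 0.00328). UGT87A2 was 1.87-fold higher (log2 0.90, SE 0.189, adjusted p 0.0148), at 9.93, 9.85 and 9.97 in wild type and 10.46, 11.20 and 10.79 in mutant shoots. UGT71B6, which glucosylates abscisic acid, was 1.52-fold higher (log2 0.61, SE 0.141, adjusted p 0.0215).

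UGT78D2, the 3-O-glucosyltransferase of flavonols and anthocyanidins, was 1.96-fold lower in these mutant shoots (log2 -0.97, SE 0.235, adjusted p 0.0261). It read 9.65, 9.90 and 10.40 in wild type and 9.23, 8.61 and 9.19 in mutant shoots, without overlap. UGT76E11, which acts on flavonoids, was 1.53-fold lower (log2 -0.62, SE 0.155, adjusted p 0.0288). UGT74D1, which acts on auxin and its oxidised form, was 1.34-fold lower (log2 -0.42, SE 0.117, adjusted p 0.0471). Beside these, CHIL, a chalcone isomerase-like protein of flavonoid synthesis, was lower in the mutant (log2 -1.35, SE 0.316, adjusted p 0.0226). The other measured gene of that pathway, the dihydroflavonol reductase DFR, did not pass (log2 -0.57, adjusted p 0.386), nor did the anthocyanin glycosyltransferase UF3GT (log2 -0.71, adjusted p 0.292). Without shoot wild type low zinc replicate 1, which agreed least with its group (mean correlation 0.98), all 6 calls were kept. UGT73D1 kept its call without each array in turn. The call of UGT87A2 was lost without mutant replicate 2 (0.71, adjusted p 0.112). That of UGT78D2 was lost without wild type replicate 3 (-0.76, adjusted p 0.0793), mutant replicate 2 (-0.77, adjusted p 0.177) or mutant replicate 3 (-1.06, adjusted p 0.0541). Those of UGT71B6, UGT74D1 and UGT76E11 were lost without wild type replicate 2 or 3 or mutant replicate 2 or 3, with adjusted p from 0.0502 to 0.158. With only the arrays of the groups compared, UGT73D1 alone passed, and the others had an adjusted p of 0.0884 (UGT87A2) to 0.172 (UGT74D1). UGT71B6 was also lost with only the arrays of the shared date (adjusted p 0.0556), and UGT74D1 with the actin covariate (adjusted p 0.0642) or with eBayes set to trend and robust (adjusted p 0.0561).

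In shoots at normal and at excess zinc no member differed between genotypes by limma, beside 0.022% and 0.0308% of all probe sets. There 3 and 6 members had an unadjusted p under 0.05, as had 7.91% and 6.5% of all probe sets. The values of UGT73D1 were 0.48 at normal zinc (adjusted p 0.574) and 0.53 at excess zinc (adjusted p 0.657), mutant minus wild type. At normal zinc UGT78D2 had -0.47 (adjusted p 0.657) and UGT76E11 had -0.40 (adjusted p 0.548). At excess zinc UGT87A2 had 0.43 (adjusted p 0.733) and UGT71B6 had 0.39 (adjusted p 0.614). All genotype comparisons lay within a date.

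In roots the mutant was lower in 3 members at excess zinc, 6.38% beside 1.48% of all probe sets (0.853% lower). Of the 47 members 9 lay above 0, beside 41.8% of all probe sets. UGT72E2 was 1.69-fold lower (log2 -0.76, SE 0.158, adjusted p 0.0231), at 10.58, 11.22, 10.59 and 10.27 in wild type and 10.18, 9.68, 9.80 and 9.97 in mutant roots. Its groups did not overlap. UGT74B1 was 1.31-fold lower (log2 -0.39, SE 0.0922, adjusted p 0.0394), likewise without overlap. UGT76C2 was 1.29-fold lower (log2 -0.37, SE 0.0883, adjusted p 0.0387), and 1 mutant array, at 8.43, lay within the wild type range of 8.41 to 8.61. On these arrays the log2 of the summed photosynthetic markers was 8.78 to 9.23 in wild type and 8.87 to 9.77 in mutant roots. That of the root markers was 8.13 to 9.26 in wild type and 9.07 to 9.63 in mutant roots. The part of these markers in the genotype differences was not tested. The wild type arrays at excess zinc enter both this comparison and the zinc response of the wild type, so that the results share them. Without wild type replicate 2, the array that agreed least with its group, none of the 3 passed (adjusted p 0.0597, 0.117 and 0.0597 in the same order). None passed without wild type replicate 1 (adjusted p 0.0574, 0.125 and 0.107), mutant replicate 2 (adjusted p 0.0695, 0.12 and 0.0709) or mutant replicate 3 (adjusted p 0.0974, 0.101 and 0.148) either. Without mutant replicate 1 UGT72E2 alone passed (adjusted p 0.0963 for UGT74B1 and 0.111 for UGT76C2). Without wild type replicate 3 UGT76C2 was lost (adjusted p 0.0673), and without wild type replicate 4 there were 7 calls. None of the 3 passed with only the arrays of the groups compared (adjusted p 0.295, 0.295 and 0.361) or of the shared date (adjusted p 0.0772, 0.128 and 0.137). At low and normal zinc no member differed in roots by limma, beside 0.0835% and 0.0572% of all probe sets, with 8 and 3 members at an unadjusted p under 0.05, as had 8.83% and 11.7% of all. The largest values were 0.44 for UGT73B5 at low zinc (adjusted p 0.356) and -0.34 for UGT72E1 at normal zinc (adjusted p 0.423).

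No zinc response of a member was called as different between genotypes by limma, in roots or in shoots. Over all probe sets 0.0176% passed for low and 0.0132% for excess zinc in roots, and 0.0132% and 0% in shoots. In the same order 1, 2, 5 and 0 members had an unadjusted p under 0.05, as had 3.57%, 6.92%, 4.78% and 8.11% of all probe sets. For UGT72E1 at excess zinc in roots, the difference of the responses, mutant minus wild type, was -0.03 (95% interval -0.50 to 0.44, adjusted p 0.985). For UGT72E2, which rose in wild type roots and not in mutant roots, it was -0.55 (-1.02 to -0.09, adjusted p 0.702). For UGT87A2 it was -0.42 (-0.84 to 0.0049, adjusted p 0.723) and for UGT73B5 -0.54 (-0.91 to -0.16, adjusted p 0.594). In shoots at low zinc, the difference was 0.89 for UGT73D1 (0.30 to 1.48, adjusted p 0.94) and 0.62 for UGT71B6 (0.20 to 1.04, adjusted p 0.94). So it was not shown that these members respond differently in the mutant, and the intervals do not show that they respond alike.

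Between roots and shoots of the wild type at normal zinc, 33 of the 47 members differed, 70.2% beside 60.8% of all probe sets. Of these, 16 were higher in roots (35.6% of all probe sets were) and 17 were higher in shoots (25.2% of all were). Array date cannot be told apart from tissue in this comparison. Overlap of values was not counted over all probe sets, so it is given here as description only. Among the called members, the values of roots and shoots overlapped for UGT74B1 (log2 0.25), UGT78D3 (log2 -0.27) and UGT76E1. The last is counted as higher in shoots, but its means of 4.17 in roots and 4.38 in shoots are both under the lower limit of 4.92, so no fold is given for it.

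Higher in roots were above all members of subfamilies 71, 72 and 76. UGT71C1 was 27.7-fold higher (log2 4.79, SE 0.183, adjusted p 5.52e-23), at 10.44 to 10.74 in roots and 5.59 to 5.94 in shoots. UGT72E2 was 9.15-fold higher (log2 3.19) and UGT72E3 3.93-fold (log2 1.98), while UGT72E1 was 1.57-fold higher (log2 0.65, adjusted p 0.00091). UGT76D1, which acts on dihydroxybenzoic acids derived from salicylate, was 5.71-fold higher (log2 2.51). UGT71C3, which glucosylates methyl salicylate, was 5.63-fold higher (log2 2.49), and UGT76B1 4.82-fold (log2 2.27). UGT71C2 was 4.47-fold higher (log2 2.16) and UGT71C5, which acts on abscisic acid, 2.68-fold (log2 1.42). No values of roots and shoots overlapped for these members.

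Higher in shoots were, first, the flavonoid glycosyltransferases. UGT78D1, the 3-O-rhamnosyltransferase of flavonols, was at least 14.2-fold higher in shoots (adjusted p 3.97e-25), with 4.39 to 4.78 in roots and 8.49 to 9.00 in shoots. UGT78D2 was 11.6-fold higher in shoots (log2 roots minus shoots -3.54). UGT88A1 was 17.7-fold higher (log2 -4.14) and UGT87A2 15.9-fold (log2 -3.99). UGT71B1 was 7.78-fold higher in shoots (log2 -2.96), and UGT84A3, another hydroxycinnamate ester enzyme, at least 6.62-fold (adjusted p 1.57e-18). UGT76E11 was at least 2.4-fold higher (adjusted p 9.82e-18) and UGT72B3 2.44-fold (log2 -1.29). None of these members had overlapping values.

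**Figure D4:**
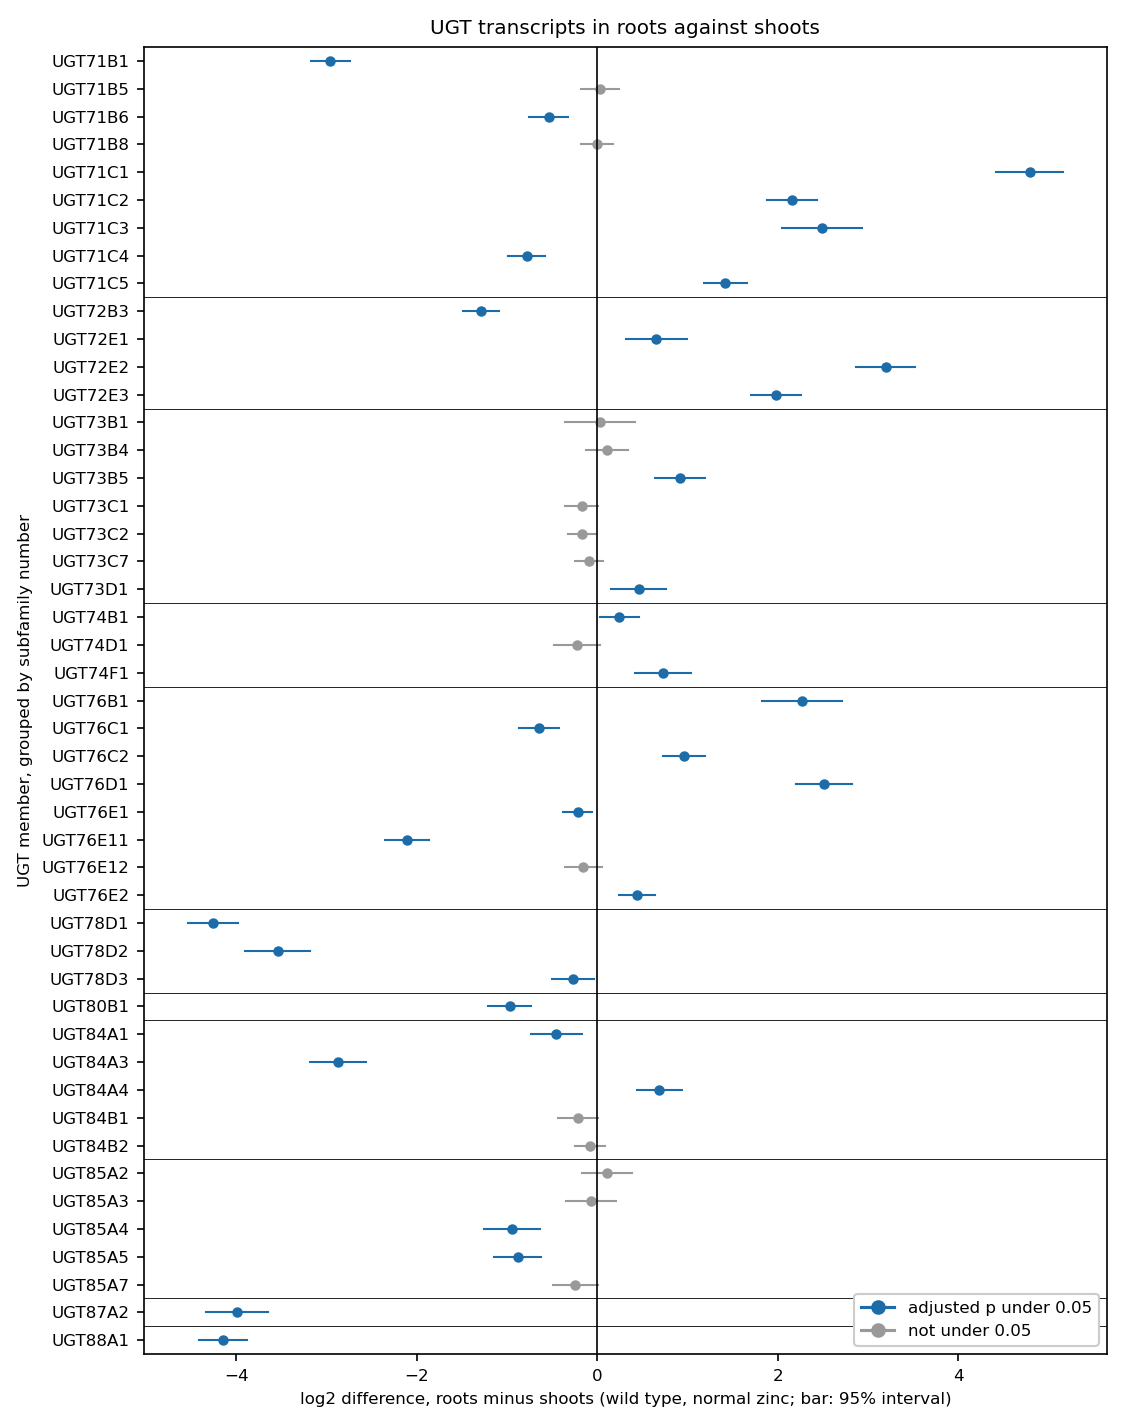
Log2 difference between roots and shoots of wild type plants at normal zinc for the 47 UGT members (rows, grouped by subfamily number), with 95% intervals; blue points had an adjusted p under 0.05 and grey points did not. Subfamilies 71, 72 and 76 hold members far to either side, from 4.79 for UGT71C1 to -2.96 for UGT71B1, and all 3 members of subfamily 78 lie on the shoot side.

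Called members went in both directions in subfamilies 71, 72, 76 and 84, and in a single direction in each of the others. Of all probe sets, 35.6% were called higher in roots and 25.2% higher in shoots. In subfamily 71, 4 members were higher in roots and 3 in shoots. In subfamily 72 the counts were 3 and 1, in subfamily 76 they were 4 and 3 (UGT76E1 among the 3), and in subfamily 84 they were 1 and 2. In subfamilies 73 and 74, 2 members each were higher in roots and none in shoots. All called members of subfamilies 78 (3), 80 (1), 85 (2), 87 (1) and 88 (1) were higher in shoots. Among them the call of UGT78D3, whose values overlapped, was lost in 9 of 13 alternatives.

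By gene order in the RefSeq table of assembly TAIR10.1, 31 of the 47 members lay in 13 runs of neighbouring UGT members. A run was allowed steps of at most 10 places in the order of protein-coding genes. Near-identical neighbours can share a signal on such an array, so values within a run are not independent. Of the 31, 20 differed between tissues (64.5% beside 60.8% of all probe sets). Leaving out UGT76E1, 2 or more members differed in 6 runs, and in 3 of these they went in opposite directions. Over all probe sets 35.6% were called higher in roots and 25.2% higher in shoots. How often other neighbouring genes go in opposite directions was not counted. On chromosome 1, UGT71C5 and UGT71C3 were higher in roots while UGT71C4 between them was 1.72-fold higher in shoots (adjusted p 1.75e-08). On chromosome 5, UGT76C2 was 1.95-fold higher in roots and its neighbour UGT76C1, also a cytokinin N-glucosyltransferase, 1.57-fold higher in shoots. On chromosome 4, UGT84A4 was 1.61-fold higher in roots, and UGT84A1 and UGT84A3 were higher in shoots. At excess zinc in wild type roots 6 of the 31 were called (19.4% beside 9.7% of all probe sets), and they lay in 5 runs, with UGT73B5 and UGT73B4 in the same one. UGT73C7, beside UGT73D1, had no group mean above the lower limit, so that its response cannot be read.

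Read by the function of the enzymes, 3 of 7 measured members of the monolignol and phenolic list rose in wild type roots at excess zinc (UGT72E1, UGT72E2 and UGT84A4) and none fell, where 5.96% of all probe sets were called higher. Their median log2 difference was 0.181, beside -0.001 over all probe sets. In mutant roots, where 3.45% of all probe sets were called higher and 1.62% lower, 1 rose and 1 fell. The latter was GT72B1, another name of UGT72B1 (log2 -0.49, adjusted p 0.033). Of 6 measured members of the salicylate and defence signal list, 3 rose in wild type roots (UGT73B5, UGT76B1 and UGT87A2), with a median of 0.578, and 1 rose in mutant roots (median 0.28). UGT87A2 stands in that list although the role given for it above is in flowering time, and of the other 5 members 2 rose. In mutant shoots at excess zinc 1 member of each of these lists fell (UGT72E2 and UGT76B1, list medians -0.165 and -0.29), where 0.936% of all probe sets were called lower. Of 9 measured hormone enzymes 1 rose in wild type roots (UGT76C2, median 0.02). Of 3 glucosinolate and sterol enzymes 1 rose (UGT74B1, median -0.004). UGT71C1 and UGT76E11, given above as acting on flavonoids, stand outside the flavonoid and anthocyanin list. UGT71C1 fell in mutant roots at excess zinc (log2 -0.72, adjusted p 0.0131) and was higher in roots than in shoots, while UGT76E11 was higher in shoots. None of the 4 measured members of that list passed at excess zinc in roots or shoots. In shoots at low zinc 1 of these 4 was lower in the mutant (UGT78D2, median -0.601 beside -0.023 over all probe sets), where 2.75% of all probe sets were called lower. All 4 were called higher in shoots than in roots, as were 25.2% of all probe sets, but the call of UGT78D3 was lost in 9 of 13 alternatives.

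Few genes of the pathways that supply these enzymes were found by name, which does not mean that the array lacks probes for the others. Of 29 listed genes of phenylpropanoid and monolignol synthesis and transport, 4 were measured (HCT, CCR2, BGLU45 and BGLU46). Of these, 2 rose in wild type roots at excess zinc, where 5.96% of all probe sets were called higher. CCR2, a cinnamoyl-CoA reductase, which makes the aldehyde precursors of monolignols, rose 2.12-fold there (log2 1.08, SE 0.212, adjusted p 0.00172) and likewise in mutant roots (log2 1.07, adjusted p 0.00351). HCT, a hydroxycinnamoyltransferase of the same pathway, rose 1.35-fold in wild type roots (log2 0.43, adjusted p 0.011). BGLU46, a glucosidase of monolignol glucosides, was 19.2-fold higher in roots than in shoots (log2 4.26). Of 19 genes of flavonoid synthesis 2 were measured, and DFR and CHIL were both higher in shoots than in roots (log2 roots minus shoots -5.40 and -3.70). None of 17 genes of salicylate synthesis and response was found by name on a probe set paired with 1 gene. Of 21 genes of the xenobiotic and detoxification response 2 were measured. GSTU26, a glutathione transferase, fell by 1.59 on the log2 scale in wild type roots at excess zinc (adjusted p 5.52e-05), and GSTU25 rose in mutant roots (log2 0.63, adjusted p 0.032).

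In all, 17 of the 47 members were called in a zinc, genotype or interaction comparison, and 30 in none of these, beside 19.6% of all probe sets called in at least 1 of them. Of the 17, 13 were called in a zinc comparison (15% of all probe sets) and 9 in a genotype comparison (7.21%). With that between tissues included, 64.5% of all probe sets were called at least once, and 12 members were not: UGT71B5, UGT71B8, UGT73B1, UGT73C1, UGT73C2, UGT73C7, UGT76E12, UGT84B1, UGT84B2, UGT85A2, UGT85A3 and UGT85A7. Of these 12, 6 had every group mean at or under the lower limit of 4.92, where a change of a weak transcript may not be visible. The other 6 ranged in their group means from 4.88 to 8.54. UGT85A2 stayed between 7.79 and 8.54 and UGT85A7 between 6.92 and 7.35 over all 12 groups.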

How the data were processed

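The deposited table holds, per the labels, 1 log2 value per probe set and array, which the authors made by RMA from arrays hybridised with biotin-labelled RNA. The submitters' processing notes name RMA and limma, and the sources used here give no version, background setting or annotation for them. Probe sets were named from GEO's platform annotation, and RefSeq (TAIR10.1) was used only for names and gene order. Of 22810 probe sets, 64 controls were left out, and of the 22746 tested 13513 (59.4%) were paired with 1 gene, 503 with several and 8730 with none. All 47 members matched RefSeq. The names CHI and ATB2 of the lists stand for other genes in the platform table and were left out.

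Groups followed the labels. The 24 root and 18 shoot arrays were fitted separately with limma 3.58.1 in R 4.3.3 (1 mean per group, eBayes defaults, no filter), and comparisons of tissues used all 42 arrays. P-values were two-sided, with Benjamini-Hochberg adjustment over 22746 probe sets within each of 21 comparisons, and a call is an adjusted p under 0.05. As a check of the code, the fit was run on simulated data with root signal levels and spreads, independent noise and no date effect. That run does not bear on shoots, comparisons of tissues or array date. For arrays, their number limits the precision. Members and lists were chosen with earlier results of these data known. Named with values are the members called in a zinc, genotype or interaction comparison, the 8 largest tissue differences in each direction, the 3 largest values where fewer than 3 were called in a zinc comparison, and the highest and lowest levels. Members given with values in genotype and genotype by zinc comparisons without a call, in the runs of neighbours and among those never called, with DFR and UF3GT in shoots at low zinc, fall outside this rule and were chosen after their values were seen. Alternatives tried were leaving out each array, the replicate number as a block, other sets of arrays, each array centred on its median, a group mean of at least 6, the actin 3' to 5' difference as a covariate, eBayes with trend and robust settings, members added by RefSeq synonym, and a log2 size of 1. Tables and plots used Python 3.11.15, pandas 2.3.3, numpy 2.4.6 and matplotlib 3.10.9.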

Additional observations from a re-analysis of the deposited data

Results flagged for a closer look

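In wild type plants, the response to excess zinc differed between roots and shoots for 9 members by the interaction term of limma over all 42 arrays. The differences, roots minus shoots on the log2 scale, were 2.33 for UGT72E1 (adjusted p 7.46e-08), 2.05 for UGT73D1 (7.8e-08), 1.75 for UGT76B1 (0.00035) and 1.62 for UGT87A2 (3.35e-05). They were 1.05 for UGT72E2 (0.00349), 0.71 for UGT73B5 (0.022), 0.71 for UGT76C2 (0.00533), 0.65 for UGT73B4 (0.0137) and -0.64 for UGT71C2 (0.0472). In shoots, the excess zinc arrays carried another date than those at normal zinc, so that the shoot response in these differences and array date cannot be told apart.

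Among 78 root groups of 4 arrays, over the 13 members called in roots at excess zinc, 2 held an array whose gap to its nearest neighbour exceeded Dixon's critical share of the range of its group. UGT76B1 read 9.77 on wild type low zinc replicate 1, below the other 3 arrays (gap share 0.873), and UGT76C2 read 7.97 on mutant low zinc replicate 3 (gap share 0.876). Chance gives about 1 such array in 20 groups, and no member was called in a zinc or genotype comparison at low zinc in roots.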

How the results depend on the processing

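No member's call reversed under any alternative. Of 38 member calls outside roots against shoots, 19 were kept under every alternative other than the log2 size of 1, and of 33 between tissues 29 were kept. The tissue calls lost were those of UGT78D3 (in 9 of 13 alternatives), UGT74B1 (8 of 14), UGT76E1 (4 of 13) and UGT73D1 (1 of 14). The counts of members called, with 1 array left out at a time, ran from 9 to 14 (main count 11) for excess zinc in wild type roots, 3 to 6 (5) in mutant roots, 0 to 2 (1) in wild type shoots and 1 to 2 (3) in mutant shoots. They ran from 0 to 1 (0) for low zinc in wild type shoots, low zinc in mutant shoots, mutant against wild type roots at normal zinc and the tissue by low zinc interaction. They ran from 0 to 7 (3) for mutant against wild type roots at excess zinc, 1 to 7 (6) for shoots at low zinc, 29 to 35 (33) for roots against shoots and 7 to 10 (9) for the tissue by excess zinc interaction. In the other 9 comparisons they stayed at 0. With an added log2 size of 1, 1 member was called at excess zinc in wild type roots, 1 in mutant roots, 0 for mutant against wild type roots at excess zinc, 1 for shoots at low zinc, 16 between tissues and 5 in the tissue by excess zinc interaction. With only the arrays of the groups compared, 7 were called at excess zinc in wild type roots, 0 for mutant against wild type roots at excess zinc and 1 for shoots at low zinc. With only the arrays of the shared date, 3 were called at excess zinc in mutant roots and 0 for mutant against wild type roots. With all 42 arrays in the fit, 2 were called at low zinc in wild type and 2 in mutant shoots, 4 at excess zinc in wild type shoots (1 higher, 3 lower) and 7 in mutant shoots (2 higher, 5 lower). With actin as a covariate the counts at excess zinc were 2 in wild type and 1 in mutant shoots. Fewer arrays or another pooled spread enter these fits, and the cause of a lost call was not tested beyond that. Replicate numbers showed no clear pairing of samples. The correlations of deviations of same-numbered samples ran from -0.452 to 0.496 over 60 root pairs (median -0.048, 16 over 0.1). Over 45 shoot pairs they ran from -0.268 to 0.414 (median 0.008, 9 over 0.1). With unlike numbers they ran from -0.562 to 0.53 over 180 root pairs (median 0, 59 over 0.1) and from -0.421 to 0.346 over 90 shoot pairs (median -0.008, 22 over 0.1). With the replicate block the count at excess zinc in mutant shoots was 1 (adjusted p 0.0606 for UGT72E2 and 0.0707 for UGT76B1), the calls of UGT76B1 in mutant roots (0.056) and UGT76C2 between genotypes (0.0553) at excess zinc were lost, and no other count moved by over 1.5 times. Within the main settings, a signal near 4.92 limits what can be seen of the 7 dimmest members.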

Other observations

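Further UGT genes were read outside the members, by 3 probe sets shared with another gene and 4 named by another symbol. The probe set shared by UGT73B2 and UGT73B3, of the same subfamily as UGT73B4 and UGT73B5, rose 2.02-fold at excess zinc in wild type roots (log2 1.01, SE 0.225, adjusted p 0.00511). It also rose in mutant roots (log2 1.14) and was higher in mutant than in wild type shoots at low zinc (log2 0.75), and its response to excess zinc differed between tissues by 1.75, where the shoot response and array date cannot be told apart. It cannot tell these genes apart. UF3GT, another name of UGT79B1 and an anthocyanin glycosyltransferase, was 10.2-fold higher in shoots than in roots (log2 roots minus shoots -3.35). GT72B1, another name of UGT72B1, which acts on phenolics and xenobiotics, was higher in shoots (log2 -1.29), and SGT, another name of the sterol glucosyltransferase UGT80A2, was higher in roots (log2 0.53). The probe set shared by UGT71D1 and AT2G29710 was higher in roots (log2 1.85). All tissue values are of wild type plants at normal zinc, where array date and tissue cannot be told apart, and passed limma's adjusted p of 0.05. The probe set shared by UGT89B1 and AT1G73885 passed in none of the 21 comparisons. AT5G54010 passed in none either, but its group means of 4.62 to 4.87 were all under the lower limit of 4.92, so that its response cannot be read.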
